A study of Mus musculus with 2 samples.

Results

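The genes described here are the mouse genes named Psma, Psmb, Psmc, Psmd, Psme, Psmf and Psmg with a number, the naming system of the proteasome. They were taken by name from the protein-coding genes of the annotation used by the authors, and the naming rule uses no measured value. The annotation holds 50 such genes, of which 48 had at least 1 read, among 18534 annotated genes with a read in the left cerebral cortex. Replicate 1 had reads for 48 of them and replicate 2 for 46. The name also brings in Psmc3ip, a meiotic recombination factor that is not a proteasome subunit, and it belongs to none of the groups of subunits below. Its 3 and 2 reads are part of the pooled values over the 48 genes. The remaining 2 genes, Psmb11, the catalytic subunit of the thymus proteasome, and Psme2b, a copy of the activator gene Psme2, had 0 reads in both libraries, which allows up to 3.87 CPM in replicate 1 and 4.42 CPM in replicate 2 (the value of 3 reads; CPM, the usual counts scaled to a common total, here the reads on annotated genes).

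The proteasome is the protease that degrades proteins marked with ubiquitin in the cytosol and nucleus. Its barrel, the 20S core, has outer rings of alpha subunits and inner rings of beta subunits, some of which carry the active sites. The 19S regulatory particle sits on the barrel, binds and deubiquitinates substrates, and unfolds them with a ring of ATPases. Under interferon, and in immune cells, the catalytic beta subunits can be replaced by immunoproteasome subunits encoded by separate genes. In neurons the proteasome is known for its part in the turnover of synaptic proteins.

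Long-read cDNA sequencing was done on left cerebral cortex tissue. The animals were adult B6CASTF1/J mice, 18 to 20 months old. Each read shows the exons joined in 1 molecule. B6CASTF1/J is a cross of a laboratory strain with a wild-derived strain. The labels list 1 group with biological replicates 1 and 2, which share a donor entry. Each library was made from 2 µg of RNA. No treatment, mutant allele or second tissue was compared. The labels give the sex as female in one field and male in another. The libraries held 871524 and 839150 reads, of which 774629 (88.9%) and 679147 (80.9%) lay on annotated genes. With 1 group, the data address which subunit genes were transcribed in the cortex, in which spliced forms, and at what level. Tests between the libraries measure counting error only and compare the libraries, not conditions. Markers of excitatory and inhibitory neurons, astrocytes, oligodendrocytes, microglia and endothelium were all read in at least 1 library. So were the 2 markers of B cells and plasma cells, with 0 and 1 reads for Cd79a and 3 and 0 for Jchain. Of 3 T cell markers 1 was read, at 1.29 and 1.47 CPM in replicates 1 and 2. Because the tissue is a mixture, fewer cells of a type and less RNA per cell cannot be told apart.

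The proteasome genes held 5147 reads in replicate 1 and 4617 in replicate 2, or 6644 and 6798 CPM. As a share of reads on annotated genes this was 0.664% (95% Wilson interval 0.647 to 0.683) and 0.680% (0.661 to 0.700), so the intervals of the libraries overlap. A long read stands for 1 cDNA molecule, so CPM was not divided by transcript length, and levels of different genes can be set side by side as molecules read. The models that carried proteasome reads were short, with a median length of 1459 and 1541 nt against 2156 and 2197 nt over all protein-coding genes. Whether long molecules were read less often was not tested. Of the 48 genes, 42 had at least 20 reads in total. Their median was 138 CPM against 49.3 CPM over the 8830 protein-coding genes with as many reads, and 35 of the 42 lay above that value.

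The 20S alpha ring is built from 7 subunits, and all 7 genes were read in both libraries. Their summed level was 1262 ± 45.3 CPM (SD, n = 2). Psma7 had the most reads, 251 in replicate 1 and 270 in replicate 2 (361 ± 52.0 CPM), and Psma4 the fewest, 60 and 44 (71.1 ± 8.96 CPM). The highest was thus 5.07 times the lowest although each ring takes 1 copy of each subunit. Psma3 had 181 and 165 reads, Psma2 141 and 125, Psma5 118 and 94, Psma6 110 and 88, and Psma1 92 and 93. In both libraries Psma7 stood first and Psma3 second, while Psma6 and Psma1 changed places between the libraries. These levels and the ratio count the reads of all models. Reads on models with the full chain of coding exons were 57.0% for Psma7 and 62.7% for Psma3, against 82.2% (Psma1) to 92.1% (Psma2) for the others. On the main coding transcripts, Psma2-201 had 245 reads over both libraries and Psma3-202 had 216, so the order depends on the models counted. Psma8, the alpha subunit of the testis proteasome, had 1 read in replicate 1 and 0 in replicate 2.

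Of the beta subunits, Psmb5, Psmb6 and Psmb7 carry the active sites of the constitutive core. Psmb6, the caspase-like site, had 195 and 187 reads (264 ± 16.7 CPM). Psmb5, the chymotrypsin-like site, had 156 and 101 (175 ± 37.2 CPM), and Psmb7, the trypsin-like site, 55 and 58 (78.2 ± 10.2 CPM). The order was Psmb6, Psmb5, Psmb7 in both libraries, and the ranges of these 3 genes over the libraries did not overlap. The other beta ring genes, which carry no active site, were Psmb1 with 205 and 188 reads, Psmb2 with 110 and 131, Psmb3 with 82 and 78, and Psmb4 with 53 and 51. Their sum was 620 ± 55.7 CPM, and that of the 3 constitutive catalytic genes was 517 ± 10.4 CPM.

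The immunoproteasome genes were unequal. Psmb8, which replaces Psmb5, had 6 reads in replicate 1 and 4 in replicate 2 (6.82 ± 1.31 CPM). Psmb9, which replaces Psmb6, had 1 and 0 reads. Psmb10, which replaces Psmb7, had 63 and 40 reads (70.1 ± 15.9 CPM), a level close to that of Psmb7 itself. Set against its constitutive partner, Psmb8 held 3.70% (Wilson interval 1.71 to 7.84) of the reads of the pair in replicate 1 and 3.81% (1.49 to 9.39) in replicate 2. Psmb9 held 0.510% (0.0901 to 2.83) in replicate 1 and 0 of 187 reads in replicate 2, where the upper bound is 2.01%. For Psmb10 the share was 53.4% (44.4 to 62.1) of 118 reads and 40.8% (31.6 to 50.7) of 98 reads, and these intervals overlap. In each library, the interval of the Psmb10 pair lay wholly above those of the other pairs. The intervals and the limits for 0 reads cover counting error only.

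**Figure D1:**
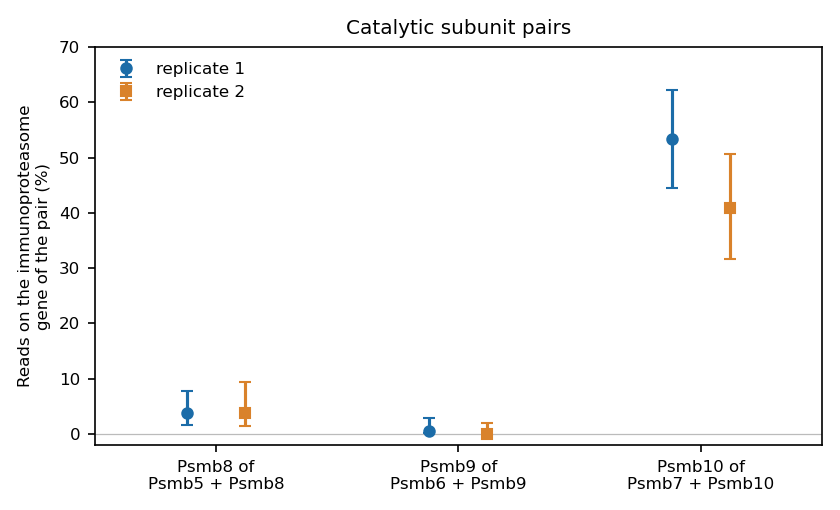
Share of reads on the immunoproteasome gene of each catalytic pair, in percent of the reads of both genes, for replicate 1 (circles) and replicate 2 (squares) with 95% Wilson intervals. The Psmb8 and Psmb9 pairs lie below 4% in both libraries and the Psmb10 pair at 53.4% and 40.8%.

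Part of the Psmb10 reads were on models without the full chain of coding exons. Of its 103 reads, 54 (52.4%) were on Psmb10-201, the annotated coding transcript with 8 exons, and 25 (13 and 12) on an unannotated chain that begins inside the exon 1 region and keeps intron 1. Pairs were also counted over reads on models with the full chain of coding exons only, in both libraries together. The share of Psmb10 in its pair was then 34.2% (27.2 to 41.9) of 158 reads. It was 3.85% (2.10 to 6.93) of 260 reads for Psmb8 and 0.309% (0.0545 to 1.73) of 324 reads for Psmb9. All 10 Psmb8 reads lay on Psmb8-201. The defining markers of microglia, the resident immune cells of the brain, were read in at least 1 library (8 of 8; Cx3cr1 had 0 reads in replicate 1 and 7 in replicate 2), and summed to 784 and 858 CPM. B cell and plasma cell markers summed to 3.87 and 1.47 CPM. The part of any cell type in the level of Psmb10 was not tested.

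The ATPases of the 19S particle, Psmc1 to Psmc6, form the ring that unfolds substrates. Their summed level was 1703 ± 35.6 CPM, and Psmc5 had the most reads of all members, 401 and 335 (505 ± 17.3 CPM). Psmc1 had 276 and 251 reads (363 ± 9.39 CPM), Psmc3 had 222 and 223 (307 ± 29.5 CPM), and Psmc4 had 199 and 190. Psmc2, with 110 and 95 reads, and Psmc6, with 92 and 80, were the lowest of the ring in both libraries. The ratio of the highest to the lowest ATPase gene was 4.27.

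The 11 non-ATPase subunits of the 19S particle summed to 2074 ± 11.7 CPM. Psmd2, a large scaffold subunit of the base, had 329 and 268 reads (410 ± 21.3 CPM), second among all members on the mean and in replicate 1. In replicate 2 Psma7 had 270. Psmd1, the other large scaffold subunit, had 137 and 125 reads. Among the subunits of the lid, Psmd7 had 213 and 192 reads, Psmd12 156 and 148, Psmd8 147 and 138, Psmd3 113 and 91, Psmd6 110 and 103, Psmd13 90 and 56, and Psmd11 43 and 62. Psmd14, the deubiquitinase of the lid, had 109 and 89 reads, and Psmd4, a ubiquitin receptor, 153 and 142. Psmd11 had the lowest mean of the group at 73.4 ± 25.3 CPM, while in replicate 2 Psmd13 was lower.

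Genes for factors that act on the proteasome without belonging to its body ranged from 4.79 CPM (Psme4) to 87.8 CPM (Psmd5), so the highest of them overlap the lowest core and 19S genes. The base assembly chaperones Psmd5, Psmd9 and Psmd10 had 79 and 50, 30 and 32, and 25 and 19 reads. The 4 core assembly chaperone genes Psmg1 to Psmg4 summed to 89.0 ± 19.9 CPM, with 19 and 24 reads for Psmg1, 21 and 24 for Psmg2, 10 and 13 for Psmg3, and 8 and 9 for Psmg4. All 4 had a higher CPM in replicate 2. Among the activators that cap the core in place of the 19S particle, Psme3, the nuclear form, had 61 and 46 reads, Psme2 31 and 31, Psme1 21 and 17, and Psme4 4 and 3. The annotated transcript Psme4-201 is 6491 nt long and had 1 and 0 reads. The part of its length in the level of Psme4 was not tested. Psmf1, known as PI31, an inhibitor of the core in vitro, had 55 and 42 reads. Psmc3ip had 3 and 2 reads.

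**Figure D2:**
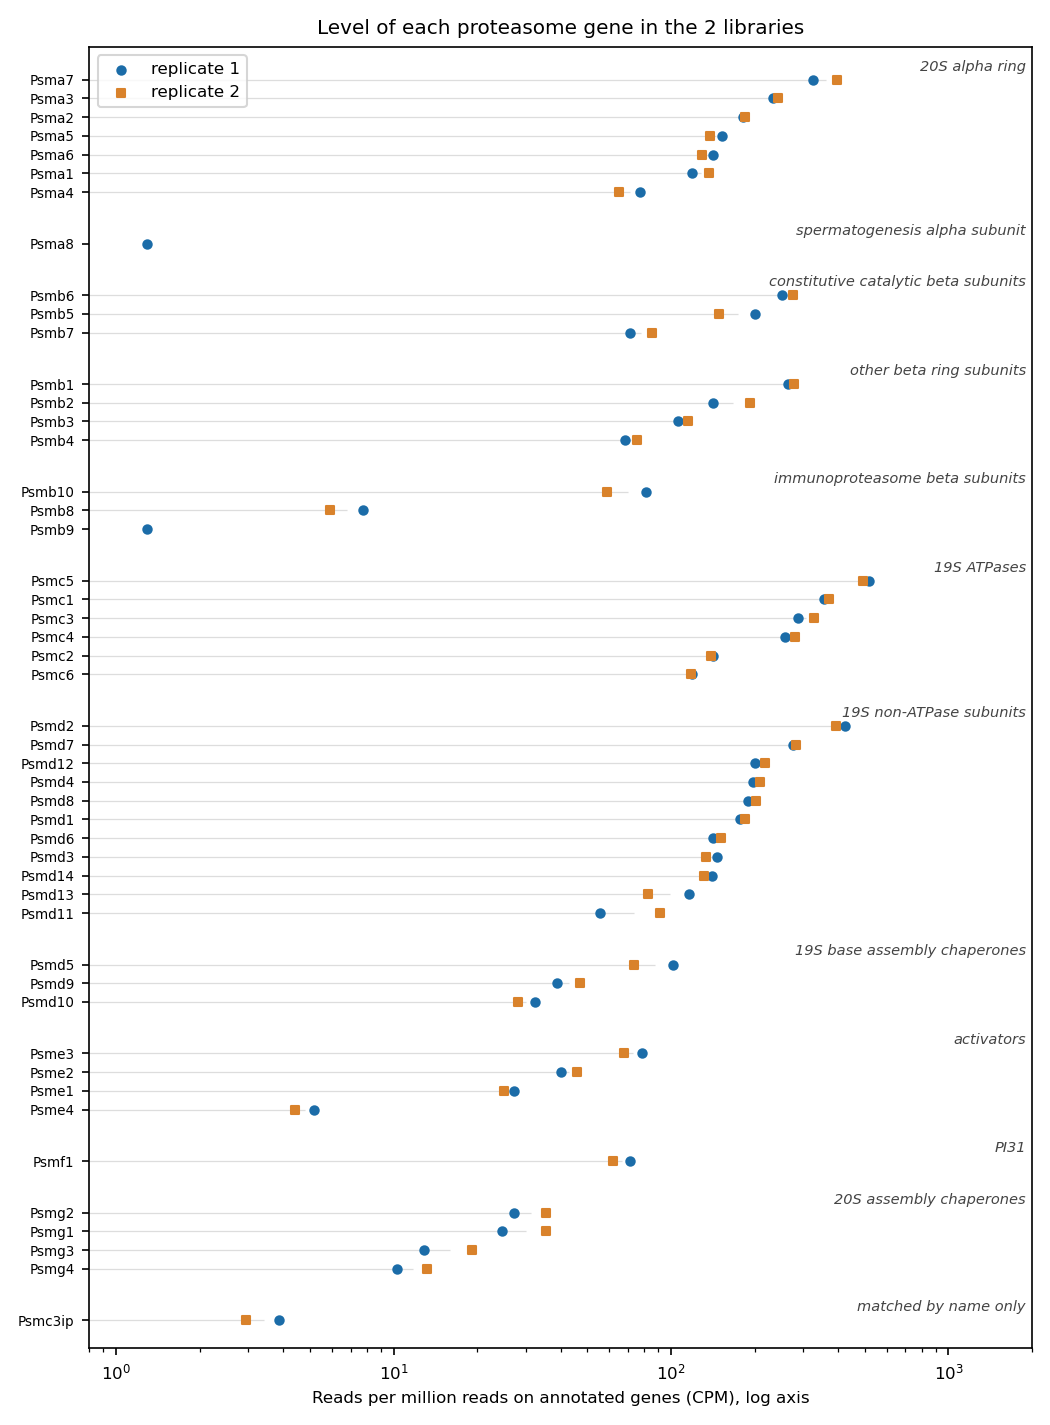
Level of each of the 48 genes in CPM on a log axis, in replicate 1 (circles) and replicate 2 (squares), grouped by role and ordered by mean within a group; 0 reads are not drawn, and grey lines end at the mean. The core and 19S genes lie between 55.5 and 518 CPM in the single libraries, while Psmb8, Psmb9, Psma8, Psme4 and Psmc3ip lie under 10 CPM.

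The 31 constitutive core and 19S genes ranged from 71.1 CPM (Psma4) to 505 CPM (Psmc5), a ratio of 7.11. The SD of their log2 levels was 0.756. The same figure was 0.631 over the 8 genes of the cytosolic chaperonin, 1.19 over 78 cytosolic ribosomal protein genes with at least 20 reads and 1.34 over 16 genes of the vacuolar proton pump. Among these sets, the spread of the proteasome was thus nearer to that of the chaperonin, and no test was made. The sets were not chosen alike. The proteasome set leaves out the immunoproteasome, testis and accessory genes. The pump set takes every gene named Atp6v, from Atp6v0a2 at 69.4 CPM to Atp6v0c at 1643 CPM. Copies of a subunit per complex were not taken into account, and the part of these choices in the order was not tested.

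Levels in the libraries were compared gene by gene with an exact two-sided binomial test over all 9143 genes with at least 20 reads, with Benjamini-Hochberg adjustment. Of the 42 proteasome genes tested, 0 passed an adjusted p of 0.05, against 1.99% (182) of all genes tested. At an unadjusted p under 0.05 there were 5 proteasome genes, 11.9% against 11.8% of all genes. The median log2 ratio of replicate 2 over replicate 1, on CPM + 1, was 0.06 over the proteasome genes and 0.03 over all genes tested, with 25 genes higher and 17 lower in replicate 2. The highest absolute log2 ratio among the proteasome genes tested was 0.71. Of the 3 core assembly chaperone genes tested, 0 were called.

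The 5 genes, named because of these values, were as follows. Psmd11 had 43 reads in replicate 1 and 62 in replicate 2, a log2 ratio of 0.71 (counting SE 0.29, exact binomial test, adjusted p = 0.240). Models antisense to Psmd11 had 19 and 37 reads, and their part in this ratio was not tested. Psmb5, with 156 and 101 reads, gave -0.43 (SE 0.18, adjusted p = 0.268). Psmb2 gave 0.44 and Psma7 0.29, both with an adjusted p of 0.277, and Psmd13 gave -0.49 with an adjusted p of 0.408. Core subunits thus lay on both sides of 0.

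Proteasome reads fell largely on annotated transcripts. In replicate 1, 84.5% (83.4 to 85.4) of them were given to an annotated transcript, and in replicate 2, 82.4% (81.2 to 83.4). Over all protein-coding genes the shares were 71.1% and 68.2%, and the intervals of the 2 sets of genes do not overlap in either library. These intervals pool reads and cover counting error only, not the spread among genes. That share was 0% for Psmc2, 58.0% for Psma7 and 97.3% for Psmb5, so genes with many reads weigh heavily. A difference between the sets with genes as the unit was not tested. Incomplete splice matches, models whose junctions are a run of the junctions of an annotated transcript, held 9.19% and 10.2% of proteasome reads against 11.7% and 12.6%. New combinations of annotated splice sites held 2.51% and 3.75% against 6.73% and 7.17%, and models with an unannotated site held 2.70% and 2.53% against 3.93% and 4.43%. Genomic models, which do not follow annotated junctions, held 1.15% and 1.10% against 6.51% and 7.64%. The median model was shorter for proteasome genes, as given above, and the part of length in these shares was not tested.

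**Figure D3:**
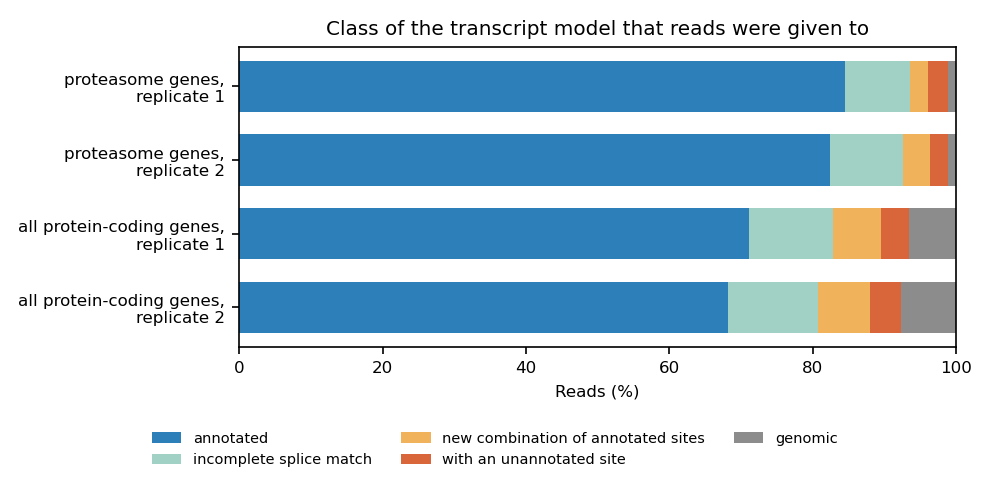
Percent of reads by class of the transcript model, for the proteasome genes and for all protein-coding genes in each library. The annotated class takes 84.5% and 82.4% of proteasome reads and 71.1% and 68.2% of all protein-coding reads.

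Models with a full chain of annotated coding exons held 85.0% and 82.7% of proteasome reads, against 74.0% and 70.8% over all protein-coding genes. The chain is that of the model, and the models do not give where each read begins. For Psmc2, 94.1% of reads counted as full, under the limit on starts given below. At 50 or more reads there were 37 proteasome genes, and the major transcript of each, the one with most reads, held a median of 85.5% of its reads against 66.7% over 5694 protein-coding genes. In 36 of the 37 it was an annotated transcript. The share of the major transcript was compared between the libraries by Fisher's exact test, two-sided, in genes with at least 20 reads in each. Of 38 proteasome genes tested 0 were called, beside 0.168% (10) of 5961 genes. An unadjusted p under 0.05 was found for 3 of the 38, beside 6.73% (401) of all genes tested. The lowest adjusted p was 0.140, for Psmb3, whose transcript Psmb3-201 held 98.8% of reads in replicate 1 and 84.6% in replicate 2. Transcripts annotated for nonsense-mediated decay held 0.544% and 0.758% of proteasome reads, and those annotated as retained introns 1.05% and 0.996%.

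In all, 611 transcript forms of the 48 genes were counted, 84 of them annotated. The unannotated single-exon models of a gene were counted together as 1 form, wherever they lay. Of 496 unannotated spliced chains, 113 were read in both libraries, with 984 reads, and 383 in only 1 library, with 460 reads, and 334 chains rested on 1 read. The members with a mixed or unannotated make-up are taken in turn. Sequences of exons and introns are those of the reference transcripts of GENCODE M21 on mm10, not read from these animals.

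Psmc2 (ENSMUSG00000028932.7, mm10 chr5:21785283-21803787, plus strand) was the 1 gene with 50 or more reads whose major transcript was unannotated. Its annotated coding transcript Psmc2-201 has 13 exons and had 0 reads in both libraries. The gene had 205 reads. A chain with 104 reads in replicate 1 and 89 in replicate 2, together 193 (94.1%), has exons 2 to 13 of Psmc2-201 and lacks exon 1, at 21785283 to 21785517. Exon 2 begins at 21786650 and the first coding base of Psmc2-201, 21786689, lies 39 bases inside it, so the model of the shorter chain spans the whole annotated coding sequence. RefSeq lists starts at 21785275 and at 21786747, the latter 97 bases inside exon 2 and 58 bases past the first coding base. A read that begins at that start would lack the annotated start codon. The deposited models do not give the start of each read. Of 788 reads on suffix models of members, which lack the first exons of an annotated transcript, 725 (92.0%) were on a model that begins exactly at an annotated exon edge. Without Psmc2 and Psma7 it was 367 of 428 (85.7%). The base where the Psmc2 reads begin was not analysed here. The sequence that leads into exon 2 is shown because it leads into the first exon of the model that holds 94.1% of the reads. It is from RefSeq (GRCm38.p6, chr5:21786497-21786679, plus strand), and capitals mark the first 30 bases of exon 2.
Psmc2 exon 2 upstream: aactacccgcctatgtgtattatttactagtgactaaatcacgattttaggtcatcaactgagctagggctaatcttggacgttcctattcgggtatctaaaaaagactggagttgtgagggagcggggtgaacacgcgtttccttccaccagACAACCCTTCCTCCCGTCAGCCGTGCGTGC

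Psmd8 (ENSMUSG00000030591.17, chr7:29174188-29180701, minus strand), a lid subunit, had an unannotated chain with 12 reads in each library, 8.42% of its 285 reads. In this chain the first exon was joined to an unannotated acceptor inside exon 4 of Psmd8-202. Exons of 73 and 103 nt were skipped and 34 nt of exon 4 were left out, 210 nt in all, a multiple of 3. Read from the annotated start codon, the frame has 219 codons in place of 289. The last bases before the new acceptor are AG, the usual end of an intron. Exon 4 (chr7:29177066-29177231) is shown with the bases kept by the unannotated chain in capitals, so that the ag before them can be seen.
Psmd8 exon 4: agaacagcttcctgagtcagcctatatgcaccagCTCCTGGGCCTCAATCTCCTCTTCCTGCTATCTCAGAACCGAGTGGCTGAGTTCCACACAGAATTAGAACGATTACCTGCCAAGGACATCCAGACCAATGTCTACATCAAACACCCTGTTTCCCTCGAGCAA

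Psmd4 (ENSMUSG00000005625.15, chr3:95032694-95042614, minus strand), the ubiquitin receptor, was read as a pair of coding forms that differ by 9 nt at a donor site. Junctions with the upstream donor, as in Psmd4-202, had 94 reads in replicate 1 and 93 in replicate 2. Those with the downstream donor, as in Psmd4-201, had 48 and 42, so the longer form made up 32.5% (27.2 to 38.2) of 277 reads. Fisher's exact test between the libraries gave an unadjusted p of 0.701. The longer form has 379 codons and the shorter 376, in the same frame. Psmd4-202 held 49.8% of all Psmd4 reads and Psmd4-201 25.4%. The end of the exon (chr3:95033909-95033968) is shown with the 9 bases of the longer form in capitals; the bases GTG at their start lie directly after the upstream donor.
Psmd4 exon end: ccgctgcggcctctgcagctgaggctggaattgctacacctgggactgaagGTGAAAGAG

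Psma3 (ENSMUSG00000060073.9, chr12:70974621-70996347, plus strand), an alpha subunit, had 62.4% of its 346 reads on the coding transcript Psma3-202. At exon 3, 17 reads in replicate 1 and 20 in replicate 2 used an acceptor 5 nt further downstream, beside 127 and 115 with the main acceptor, a share of 13.3% (9.78 to 17.7). The loss of 5 nt shifts the frame, which then has 40 codons in place of 255. Most of these reads were on Psma3-201, annotated for nonsense-mediated decay, with 14 and 16 reads. The start of exon 3 (chr12:70983319-70983378) is shown with the bases absent from the shorter form in capitals. They end in AG, so the downstream acceptor also follows an AG.
Psma3 exon 3 start: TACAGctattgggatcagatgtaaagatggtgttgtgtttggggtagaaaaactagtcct
A further 52 reads of Psma3 (31 and 21) were single-exon genomic models. The gene 3110056K07Rik overlaps Psma3 on the opposite strand and had 13 and 15 reads. As no source used here gives the orientation of the reads, how reads were divided between these genes was not tested.

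Psmd5 (ENSMUSG00000026869.12, chr2:34849734-34874968, minus strand), the base assembly chaperone, held the 1 exon among the members that was counted as a cassette exon with an inclusion between 5% and 95%. The exons skipped together in the unannotated chain of Psmd8 are not part of that count. Exon 2, of 145 nt, was included by 65 reads and skipped by 12 in replicate 1, and included by 43 and skipped by 5 in replicate 2. Inclusion over both was 86.4% (79.3 to 91.3), and Fisher's exact test between the libraries gave an unadjusted p of 0.593. Skipping leaves a frame of 78 codons in place of 504. All 17 skipping reads were on 1 unannotated chain, in which all other junctions were those of Psmd5-201. The skipped exon (chr2:34866893-34867037) is shown because its loss defines that form.
Psmd5 exon 2: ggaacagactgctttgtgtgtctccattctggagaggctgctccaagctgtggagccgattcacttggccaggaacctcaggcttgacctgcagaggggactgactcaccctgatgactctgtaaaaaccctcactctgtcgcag

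Psma7 (ENSMUSG00000027566.15, chr2:180036374-180042433, minus strand), the alpha subunit gene with the most reads, had 57.0% of its 521 reads on the coding transcript Psma7-201. An incomplete chain with the last 4 of its 7 exons held 156 reads, 78 in each library (29.9%). That model begins exactly at the upstream edge of exon 4, so the limit given for the starts of Psmc2 models applies here too. An unannotated donor 290 nt beyond the end of exon 1 was used by 12 reads in replicate 1 and 17 in replicate 2, beside 148 and 157 with the annotated donor, or 8.68% (6.11 to 12.2). The longer first exon leaves a frame of 38 codons in place of 248. The sequence around the unannotated donor (chr2:180041968-180042017) is shown with the GT after it, the usual start of an intron, in capitals.
Psma7 unannotated donor: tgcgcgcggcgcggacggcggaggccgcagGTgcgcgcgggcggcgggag

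**Figure D4:**
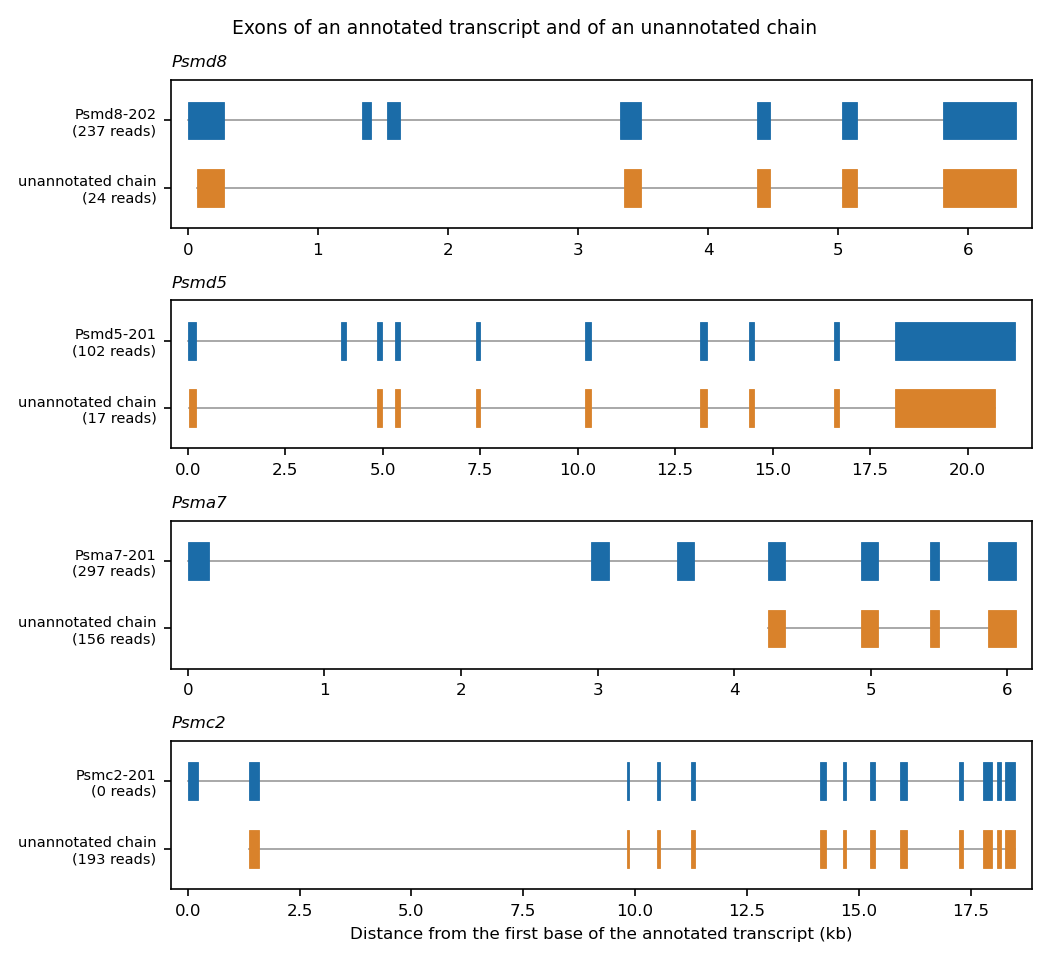
Exons (boxes) of an annotated transcript (blue) and of an unannotated chain (orange) of Psmd8, Psmd5, Psma7 and Psmc2, by distance in kb from the first base of the annotated transcript, with reads of both libraries. The orange chains lack 2 exons of Psmd8, 1 exon of Psmd5, the first 3 exons of Psma7 and the first exon of Psmc2; the latter chain had 193 reads and its annotated transcript 0.

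Psmd1 (ENSMUSG00000026229.17, chr1:86064387-86139151, plus strand), the scaffold subunit, had 172 of its 262 reads (65.6%) on Psmd1-201 with 25 exons. A chain that follows its first 22 exons and stops inside the coding part of exon 22 held 16 reads in replicate 1 and 25 in replicate 2 (15.6%). The chain was read in both libraries, and whether these molecules end there was not tested.

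Psmc1 (chr12:100110154-100123405, plus strand) had 411 of 527 reads on its coding transcript Psmc1-201, and 57 (25 and 32) on a chain that begins in intron 1 at 100110215, the start of the annotated non-coding transcript Psmc1-204, downstream of the annotated start codon. That model holds all but the first 3 bases of intron 1, so its reads were not counted as retention of the intron, which 421 reads spliced out; the limit on model starts given for Psmc2 applies here too. From the same start, a chain of 10 reads (3 and 7) used an annotated donor 292 nt beyond exon 1 and a chain of 8 reads (6 and 2) an unannotated donor 785 nt beyond it. Psmd10 (chrX:140948429-140956728, minus strand), the assembly chaperone also known as gankyrin, had 43 of its 44 reads on 2 coding transcripts and 1 on an unannotated form. Psmd10-201 had 15 and 11 reads and Psmd10-202, which lacks 79 nt before the last intron and whose frame has 151 codons in place of 231, had 9 and 8. Psme3, the nuclear activator, had 64.5% of 107 reads on Psme3-201, and 16 reads (7 and 9) were single-exon models in the last part of the gene. The leading transcripts of the remaining genes with the most reads were Psmc5-201 with 91.2% of 736 reads, Psmd2-201 with 85.1% of 597 and Psmc3-202 with 86.7% of 445.

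Retention of introns was counted in spliced reads for 357 introns of 42 members with at least 20 reads. In 9 introns of 8 genes (2.52%), 5% or more of the reads kept the intron, against 5.9% of 66709 introns of protein-coding genes counted the same way. Introns with 0 retaining reads were 60.8% of member introns and 79.0% of all introns, and neither difference was tested. The median level of the members was higher than that of all protein-coding genes, as given above, and its part in these shares was not tested. Over all member introns together, the retained share of intron observations was 0.511% in replicate 1 and 0.856% in replicate 2, beside 0.767% and 1.11% over all introns. Of the 9, 8 were shorter than 1000 nt, with a median of 262 nt against 797 nt over all member introns.

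The most retained was intron 1 of Psmb10, of 188 nt, kept by 14 of 49 reads in replicate 1 and 12 of 32 in replicate 2, together 32.1% (22.9 to 42.9). Intron 13 of Psmd11, 115 nt between the stop codon and the last exon, was kept in 15.5% (9.79 to 23.8) of reads; the coding frame of 422 codons does not change with it, and it is part of the annotated transcript Psmd11-214. Intron 6 of Psmd4 (539 nt) was kept in 14.1%, intron 8 of Psmc4 (142 nt) in 10.1%, intron 5 of Psmd3 (262 nt) in 9.09% and intron 7 of Psmd13 (855 nt) in 7.97%. Psmd6 had 2 such introns, intron 1 (546 nt) with 8.82% and intron 6 (1519 nt) with 7.25%, and intron 4 of Psma3 (77 nt) was kept in 6.87%. Single unannotated chains with these introns were read in both libraries. In Psmc4 a chain with intron 8 had 9 and 17 reads and a chain with introns 7 and 8 had 6 and 2. Chains with intron 6 of Psmd4 (8 and 10 reads), intron 5 of Psmd3 (4 and 8) and introns 1 and 6 of Psmd6 (2 and 5) were also among the most read. All 9 values were higher in replicate 2, the library with the larger retained share over all introns. The libraries differed most at intron 1 of Psmd6, kept by 3 of 106 reads (2.83%) in replicate 1 and by 15 of 98 (15.3%) in replicate 2.

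**Figure D5:**
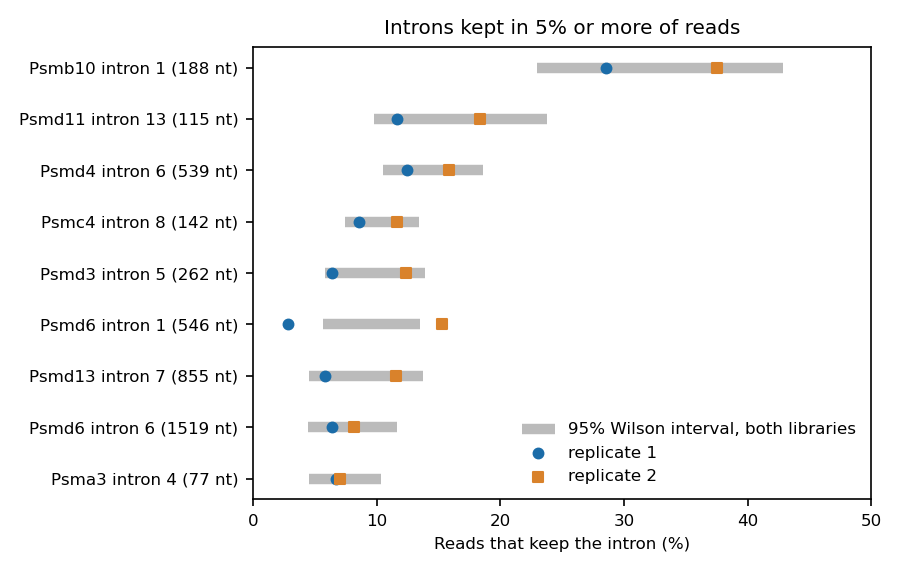
Percent of spliced reads that keep each of the 9 introns at or above 5%, in replicate 1 (circles) and replicate 2 (squares), with the 95% Wilson interval of both libraries together (grey). Psmb10 intron 1 stands first at 32.1%, and every square lies to the right of its circle.

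With intron 8 kept, the frame of Psmc4 has 307 codons in place of 418, and with intron 4 kept that of Psma3 has 112 in place of 255. Intron 5 of Psmd3 leaves 292 of 530 codons. Intron 8 of Psmc4 is shown in capitals with 10 bases of exon on each side (chr7:28042498-28042659, minus strand), as an example of a short retained intron. It begins with GT and ends with AG, the usual ends of an intron.
Psmc4 intron 8: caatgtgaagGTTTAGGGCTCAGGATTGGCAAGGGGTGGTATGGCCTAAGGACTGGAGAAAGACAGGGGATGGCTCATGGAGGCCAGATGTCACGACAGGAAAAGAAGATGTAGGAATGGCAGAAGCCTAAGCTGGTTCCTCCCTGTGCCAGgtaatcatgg

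Models classed as antisense to a member held 91 reads in replicate 1 and 171 in replicate 2, over 25 members, and 13 of these reads were spliced. Most lay at Psme4, with 15 and 56 antisense reads beside 4 and 3 sense reads, at Psmd11, with 19 and 37 beside 43 and 62, and at Psmc2, with 9 and 14. An annotated gene overlaps 9 members on the same strand and 19 on the opposite strand. Sirt3, which overlaps Psmd13 on the opposite strand, had 115 and 122 reads of its own, while antisense models at Psmd13 had 0. Psma2 shares 8943 nt with AW209491, which had 54 and 49 reads of its own. Of 4 annotated pseudogenes named for members, 0 had reads.

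Genes that work with the proteasome but do not carry its names were counted from a list of 30. Of these, 29 had reads and 26 were tested, with 0 higher and 0 lower in either library at an adjusted p of 0.05, beside the 1.99% of all genes, and a lowest adjusted p of 0.163 in the exact binomial test. Their median log2 ratio was -0.00. Adrm1, a ubiquitin receptor of the 19S particle, had 141 and 115 reads, and Sem1, a small lid subunit, 84 and 53. Usp14 and Uchl5, the deubiquitinases that dock on the particle, had 164 and 129 and 100 and 86 reads. Pomp, a maturation factor of the core, had 192 and 155. Vcp, the ATPase that extracts ubiquitinated proteins, had 230 and 184 reads.

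Nfe2l1, the transcription factor known to raise proteasome genes when proteasome activity falls, had 213 and 216 reads, and its relative Nfe2l2 11 and 15. Of the genes of antigen presentation that are induced with the immunoproteasome, B2m had 56 and 52 reads, Tapbp 44 and 46, Tap2 11 and 3, Tap1 6 and 5, and Irf1 4 and 1. Tap1, which lies beside Psmb9, was thus read more often than Psmb9 and near the level of Psmb8. The motif TGACNNNGC, the core of the element that Nfe2l1 and Nfe2l2 are known to bind, was searched on both strands of RefSeq promoters (GRCm38.p6, 250 bases before to 50 after the start). It was found in 6 of 40 members with a promoter in the table (15%), Psmb5, Psmb6, Psmc6, Psmd12, Psmd9 and Psme4, against 13.99% of 27025 genes. The members' share is near that of all genes, and the match is a description of letters only.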

How the data were processed

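For each of the 2 libraries the authors deposited whole-number read counts for each transcript model, with the exons of the models in a second file. Per the file headers the models are on mm10 with GENCODE M21 names, and the annotation names TALON as its source. No source used here gives the aligner, platform, read orientation or filters. Exon numbers, lengths and positions of models were taken as deposited. Spike-in models were kept out. Counts were summed per annotated gene over all of its models, and CPM is relative to these sums (774629 and 679147 reads). Unannotated spliced models were matched between libraries by their introns. The unannotated single-exon models of a gene were pooled into a single form, also for the major transcript and its share test.

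The gene test was a two-sided exact binomial test at 20 or more reads, and the transcript share test Fisher's exact test at 20 or more reads in each library, both adjusted over all genes (scipy 1.17.1, threshold 0.05). Tests were tested on simulated data. No test of the spread between samples was possible with 1 group of 2 libraries; whether the replicates came from separate animals is not given, so SDs may be technical. Scaling alternatives used edgeR 4.0.16 and DESeq2 1.42.0 factors. Every member is accounted for, and detail was given by rule to the 5 with most reads, the catalytic pairs, called members, members with a major transcript under 70% at 50 reads or unannotated, the 10 unannotated chains with most reads in both libraries (incomplete splice matches left out), and cassette exons. Members, lists and rules were chosen with earlier results of these data known. Frames were read from M21 transcript sequences.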

Additional observations from a re-analysis of the deposited data

How the results depend on the processing

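No paired analysis was possible because the series has 1 group. The count of 0 proteasome genes differing between the libraries held under TMM scaling, DESeq2 size factors, reads of annotated transcripts only, reads of multi-exon models only and a minimum of 10 reads, with lowest adjusted p-values from 0.118 to 0.265. The share test also kept its 0 members under its 3 alternatives. Over all genes, it called 1 of 2622 with annotated transcripts only. Without incomplete splice matches and genomic models it called 9 of 4683, and with a minimum of 10 reads in each library 11 of 8210. In the gene test, the 182 of 9143 genes called became 55 of 6508 with reads of annotated transcripts only. They became 78 of 7933 with multi-exon models only, 188 with TMM scaling and 243 with DESeq2 size factors. With a minimum of 10 reads, 189 of 11277 were called. Of the called genes 63.2% were higher in replicate 2, but 51.6% with TMM scaling and 37.0% with DESeq2 size factors. The median log2 ratio of the members, 0.06, ranged from -0.02 (DESeq2 size factors) to 0.08. The log2 ratios of the 5 genes named in the comparison kept their sign and stayed uncalled in every alternative run. With numerator and total both restricted, summed levels moved by more than their SD with reads of annotated transcripts only, to 1424 CPM (alpha ring), 712 (constitutive catalytic), 843 (other beta), 1943 (ATPases), 2520 (non-ATPases), 199 (base chaperones), 161 (activators), 79.97 (Psmf1) and 116 (core assembly chaperones). With multi-exon models only they were 1393 (alpha ring), 591 (constitutive catalytic), 709 (other beta), 1945 (ATPases), 2347 (non-ATPases), 179 (base chaperones) and 155 (activators). With a single library, summed levels and the annotated share stayed within 1 SD by construction. Depth limits genes with few reads: 6 members had under 20 reads in total and were not tested.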
